A study of Mus musculus with 6 samples.

Results

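The genes described here are 40 genes of the lysosome: hydrolases that break down glycolipids, glycosaminoglycans and proteins, proteins of the lysosomal membrane, and the regulator Tfeb. They were chosen by symbol and not by their values, but with earlier results of these data known. All 40 were found among the 23337 gene symbols of the deposited table. RNA was sequenced from sorted midbrain dopaminergic neurons of the SNc (substantia nigra pars compacta), the nucleus that supplies dopamine to the dorsal striatum. The mice were adult, of strain C57BL/6, and had 3 alleles: Th-2A-Flpo, RC-Frepe and Sox6-FSF-Cre. Neurons sorted by GFP, in which Sox6 is expressed (Sox6+), were set against neurons sorted by mCherry, in which it is not (Sox6-), with 3 libraries in each group, numbered 103, 825 and 1211 in both. All mice carried the same alleles, so the groups differ by the sorted colour. By their names, Flpo is made from the Th gene and Cre from the Sox6 gene. Since recombination is permanent, GFP can also mark cells that used the Sox6 gene only earlier in life. The labels do not say whether libraries came from separate animals or from pools, so p-values measure the spread between these libraries, which may be technical.

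Lysosomes are acidic organelles that receive material from endocytosis and autophagy and digest it with enzymes that work at low pH. Most of the enzymes are delivered by mannose 6-phosphate receptors, and the transcription factor TFEB and its relatives can raise the expression of many lysosomal genes together. Inherited loss of many of these enzymes causes a storage disease, often of the nervous system. Several lysosomal genes, among them ATP13A2, TMEM175 and SCARB2, are linked in people to Parkinson's disease, in which substantia nigra dopamine neurons are lost.

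The libraries held from 10397924 to 12952768 reads in genes and from 13429 to 15043 genes with a read. Values are normalized read counts, and 3 values of a group stand for libraries 103, 825 and 1211 in that order. Sox6 itself lay at 841, 461 and 389 in Sox6+ libraries 103, 825 and 1211, against 104, 18.1 and 36.2 in Sox6- libraries 103, 825 and 1211. The dopamine-synthesis gene Th had 29970.6, 63184.0 and 50858.3 in Sox6+ libraries and 17583.9, 51430.7 and 14823.2 in Sox6- libraries. The 11 markers of dopaminergic identity summed to 148059.3, 255525.9 and 239602.0 in Sox6+ libraries and to between 44999.2 and 139892.1 in Sox6- libraries. The sum of 8 GABAergic neuron markers was 9512.0, 765 and 3308.3 in Sox6+ libraries and between 5292.1 and 18345.6 in Sox6- libraries. Of these, Gad1, Gad2 and Pvalb were at 0 in Sox6+ 825 and in no other library. Sox6+ library 825 also held macrophage transcripts. The 25 macrophage and microglia markers summed to 39421.7 in it. The sums were 341 and 411 in Sox6+ libraries 103 and 1211, and between 44.1 and 142 in the Sox6- libraries. Among the 25 markers, Spp1 alone gave 263 and 357 in Sox6+ 103 and 1211, and 112 in Sox6- 825. Of these markers, 19 were highest in Sox6+ 825, led by Lyz2 at 26494.1, Ctss at 3543.6 and Cd74 at 2694.2, and Tyrobp, Ptprc, Fcer1g, Laptm5 and Ctss were at 0 in the other 5 libraries. The microglial marker Tmem119 was at 0 in all 6. P2ry12, another one, had 6.91, 26.2 and 31.4 in Sox6+ libraries and 0, 0 and 0.927 in Sox6- libraries. Aif1, C1qa, C1qb and Itgam were at 0 in Sox6+ 825. In bulk RNA, fewer cells of a type and less RNA per cell cannot be told apart. The main results are given with and without Sox6+ 825.

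Promoter sequence was available in RefSeq (GRCm38.p6) for 37 of the 40 genes, as windows from 250 bases before to 50 bases after each annotated start. TFEB is known to bind the E-box CACGTG within a longer palindrome, TCACGTGA, so these letters were searched on both strands. The shorter motif lies inside the longer one, and both read the same on either strand. CACGTG was held by 13 of the 37 genes (35.1%), against 11.7% of the 9410 tested genes with a window and 8.09% of all 27025 genes with a window. TCACGTGA was held by 5 of the 37 (13.5%), against 2.22% of tested genes and 1.12% of all genes with a window. The stretches around TCACGTGA are shown because these 5 genes include the aspartic protease gene Ctsd and the peptidase gene Ctsa, which stood out in Sox6+ 825, and Gla, which is among the genes of smallest p. Capitals mark TCACGTGA.
Ctsd: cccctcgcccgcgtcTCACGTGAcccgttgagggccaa
Ctsa: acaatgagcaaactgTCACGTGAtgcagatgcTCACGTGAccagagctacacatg
Gla: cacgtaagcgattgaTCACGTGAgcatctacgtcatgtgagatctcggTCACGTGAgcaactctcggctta
Cln3: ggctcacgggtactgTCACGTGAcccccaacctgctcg
Mcoln1: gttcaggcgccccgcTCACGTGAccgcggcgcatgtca
These lie in GRCm38 at chr7:142387904-142387941 on the minus strand (Ctsd), chr2:164833745-164833799 on the plus strand (Ctsa), chrX:134601178-134601248 on the minus strand (Gla), chr7:126583336-126583373 on the minus strand (Cln3) and chr8:3500458-3500495 on the plus strand (Mcoln1). The first base of the motif lies 99 bases before the start in Ctsd, 122 before it in Cln3 and 46 before it in Mcoln1. Gla holds 2 copies, 228 and 195 bases before its start, and Ctsa holds 2 copies that flank the second of its 2 annotated starts. The window of Lamp2, the gene of smallest p, does not hold CACGTG, and the 250 bases before its start, chrX:38456461-38456710 on the minus strand, are shown for comparison.
Lamp2: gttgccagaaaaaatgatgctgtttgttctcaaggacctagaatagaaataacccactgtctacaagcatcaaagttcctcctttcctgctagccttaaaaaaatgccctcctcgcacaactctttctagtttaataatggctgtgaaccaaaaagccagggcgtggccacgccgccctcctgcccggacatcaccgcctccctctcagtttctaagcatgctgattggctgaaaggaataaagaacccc

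Reads of all 40 genes were found in every library, at levels that spanned 3 orders of magnitude. Per kilobase of merged exon, the mean over the 6 libraries was highest for the cysteine protease gene Ctsb, at 2988.6 normalized reads per kilobase. Ctsd followed at 1832.8, then Psap, the precursor of the saposins that help enzymes reach their lipid substrates, at 1544.1, and Lamp1, an abundant glycoprotein of the lysosomal membrane, at 1492.6. The thioesterase gene Ppt1 lay at 1166.6 and Gaa, the acid alpha-glucosidase that digests glycogen, at 1117.1. The second place of Ctsd rested on the Sox6+ mean, which was 2114.5 for Ctsd, 1434.1 for Psap and 1413.1 for Lamp1. The mean of Sox6- neurons was 1551.1 for Ctsd, 1654.1 for Psap and 1572.1 for Lamp1. In normalized reads, the Sox6+ mean of Ctsd was 4971.3 with Sox6+ 825 and 3643.4 without it, against 3646.5 in Sox6- neurons. Exons of the gene model Gm49369 on the same strand cover 34.4% of the Ctsd exon length, so its level is uncertain. On the same scale the lowest were Tfeb at 2.60, the galactosylceramidase gene Galc at 5.09 and Sgsh, a sulfatase of heparan sulfate breakdown, at 9.01. Ctsb reads made up 26.8% of all reads of the 40 genes. Psap and Lamp1, neighbours in this order, did not differ beyond their spread in normalized reads per kilobase.

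**Figure D1:**
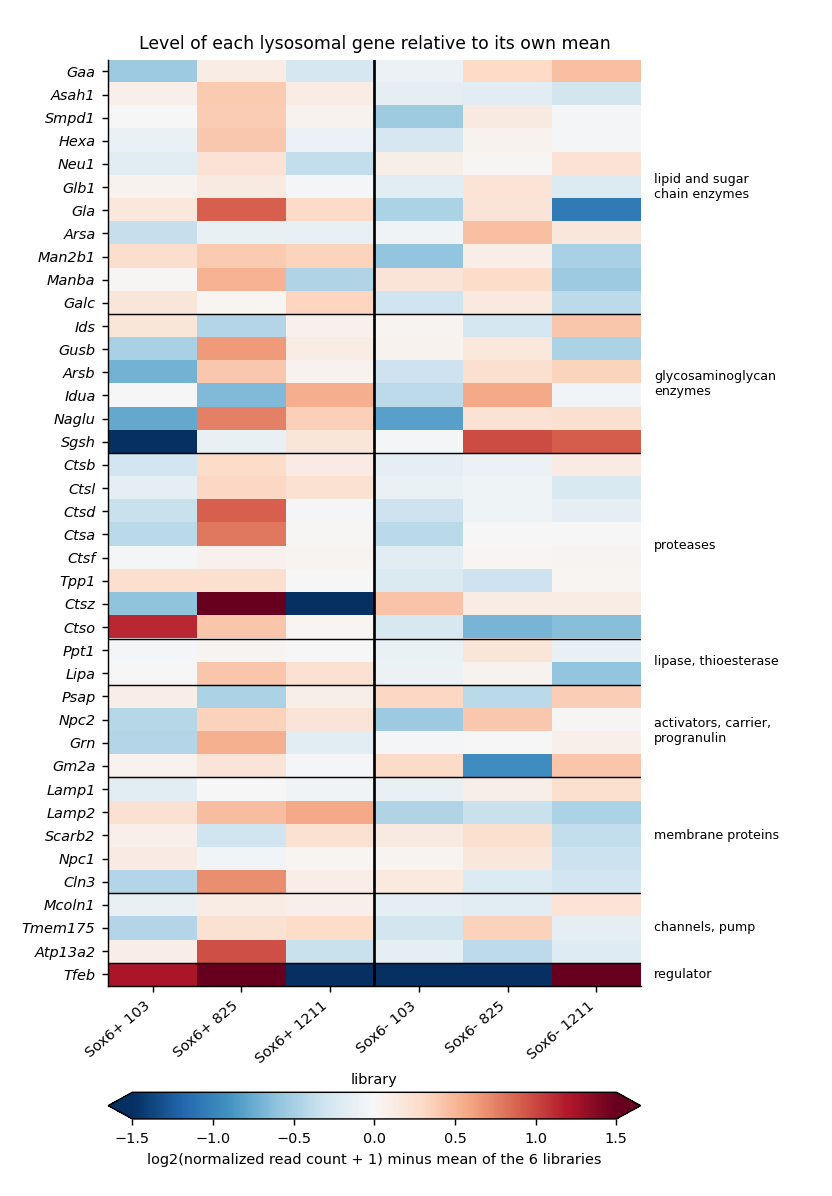
Each row is a lysosomal gene and each column a library, Sox6+ to the left of the line and Sox6- to its right. Colour gives log2(normalized read count + 1) minus the gene's mean over the 6 libraries (red above it, blue below it). Most rows are pale on both sides, Lamp2 is red in all 3 Sox6+ libraries and blue in all 3 Sox6- libraries, and 20 rows reach their highest value in Sox6+ 825.

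No lysosomal gene passed the test of Sox6+ against Sox6- neurons across all genes: 0 of 40 passed an adjusted p of 0.05 (limma, Benjamini-Hochberg over 13175 genes), where 0.304% of all tested genes passed. With edgeR on the recovered reads the count was also 0, where 0.0455% of tested genes passed. With DESeq2 on the same reads it was 1, Lamp2, where 2.98% passed. At an unadjusted p under 0.05, 5 were higher in Sox6+ neurons (Lamp2, Ctso, Asah1, Gla and Man2b1), where 5.21% of tested genes were, and Gaa alone was lower, where 6.17% were. Together these 6 are 15% of the 40, against 11.4% of tested genes. The median log2 difference of the 40 was 0.10, against -0.02 over all tested genes, and 29 of the 40 were positive (72.5%), against 48.1%. Without Sox6+ 825 the median was 0.00 and 20 of 39 were positive, where 49.6% of tested genes were.

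The data bound the size of most differences. The 95% interval of the log2 difference lay within 2-fold in either direction for 27 of the 40 genes (67.5%). The same held for 43.6% of all tested genes and for 72.4% of tested genes whose mean lay between the quartiles of the 40. Ppt1 was the most tightly bounded, with 4239.1, 4405.6 and 4246.3 in Sox6+ libraries 103, 825 and 1211 and 4005.3, 4867.1 and 3952.7 in the matching Sox6- libraries. Its log2 difference was 0.01 with an interval from -0.29 to 0.32. Ctsb had 14733.7, 21711.5 and 19502.4 in Sox6+ libraries and 16138.2, 16887.4 and 19530.0 in Sox6- libraries, and the interval of its log2 difference ran from -0.28 to 0.44. The groups overlapped for both genes.

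**Figure D2:**
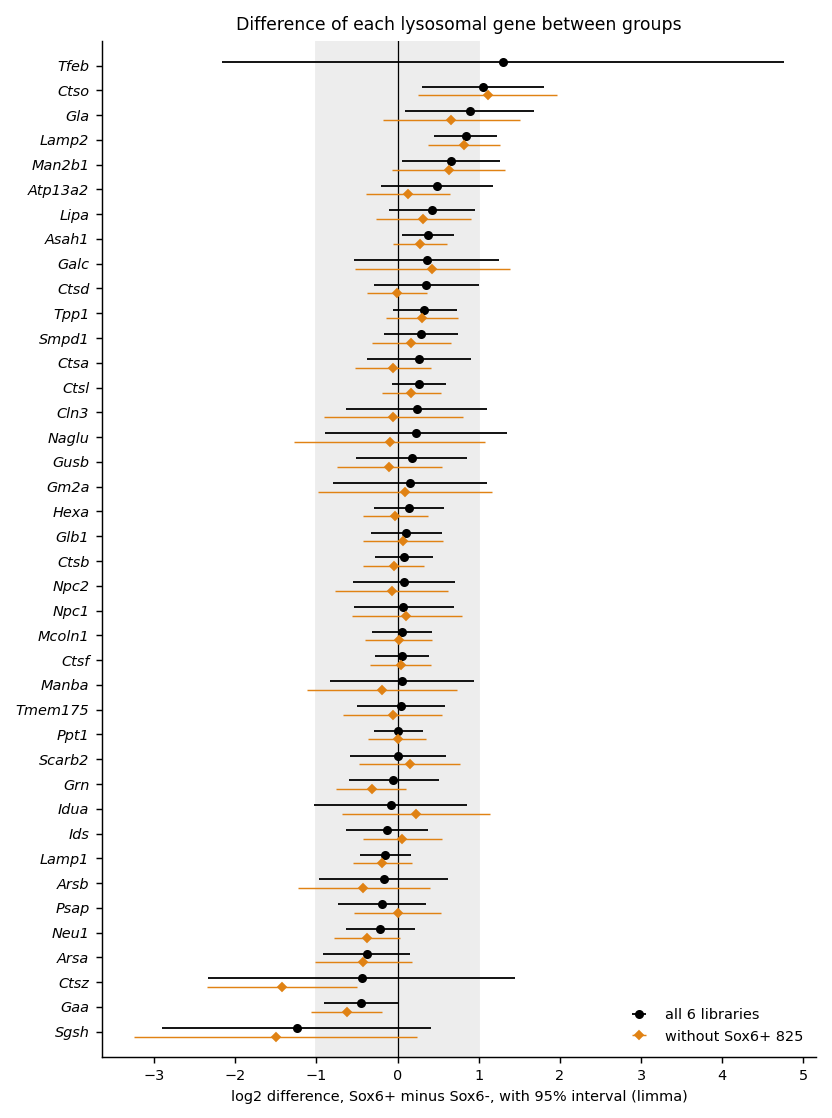
The log2 difference of each lysosomal gene (Sox6+ minus Sox6-, log2(normalized read count + 1) scale) is plotted with its 95% interval from limma, for all 6 libraries (black) and without Sox6+ 825 (orange). The grey band marks 2-fold in either direction; Lamp2 and Ctso keep their interval above 0 in both fits, and Tfeb and Ctsz have the widest intervals with all 6 libraries. Tfeb was below the filter without Sox6+ 825 and has no orange point.

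Among the 5 genes of membrane proteins, Lamp2 alone had higher values in every Sox6+ library than in any Sox6- library. LAMP2 is a major glycoprotein of the lysosomal membrane, and its A form is the receptor of chaperone-mediated autophagy. The gene lies on chromosome X from 38401357 to 38456454 on the minus strand (GRCm38), and the table does not separate its isoforms. Lamp2 had 913, 1072.7 and 1159.8 normalized reads in Sox6+ libraries 103, 825 and 1211, against 572, 617 and 560.2 in Sox6- libraries 103, 825 and 1211. All 3 Sox6+ libraries lay above all 3 Sox6- libraries. The mean was 1048.3 ± 125 in Sox6+ neurons and 583 ± 30.2 in Sox6- neurons (SD, n = 3 each). The log2 difference was 0.84 ± 0.173 (SE; adjusted p = 0.0952, limma), which missed the threshold, and an exact 2-sided permutation test gave p = 0.1, below which a design of 3 against 3 cannot go. In the authors' deposited table, made with DESeq2, Lamp2 was the only one of the 40 past the threshold, with a log2 fold change of -0.85 for Sox6- over Sox6+ and an adjusted p of 0.00113, where 2.83% of genes with an adjusted p passed. Within numbers 103, 825 and 1211 the log2 difference was 0.67, 0.80 and 1.05, and without Sox6+ 825 it was 0.82 with an adjusted p of 0.185 (limma). The summed dopaminergic markers given above were likewise higher in each Sox6+ library than in any Sox6- library. Part of that sum was Aldh1a1, at 45219.2, 55488.7 and 66304.8 in Sox6+ libraries and 19548.7, 11200.6 and 7226.6 in Sox6- libraries. Aldh1a1, Slc18a2, Drd2 and Lmx1b did not overlap between the groups. Th, Slc6a3, Ddc, Nr4a2, Pitx3, En1 and Foxa2 did, with Sox6- 825 above Sox6+ 103. The part of these markers in the Lamp2 difference was not tested.

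Lamp1 had 3540.6, 3978.6 and 3821.2 in Sox6+ libraries and 3673.3, 4236.7 and 4705.8 in Sox6- libraries, with a log2 difference of -0.15 and an interval from -0.46 to 0.17, so the groups overlapped. Scarb2, which encodes the sorting receptor LIMP-2, had 325, 249 and 359 in Sox6+ libraries and 338, 362 and 237 in Sox6- libraries. Npc1, the cholesterol exporter of the lysosomal membrane, had 211, 189 and 198 in Sox6+ libraries and 199.5, 219 and 155 in Sox6- libraries. The log2 differences of Scarb2 and Npc1 were 0.00 and 0.07.

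Of the 8 protease genes, 7 had a positive log2 difference, where 48.1% of tested genes did. The median was 0.27 over the 8 and 0.02 without Sox6+ 825. The smallest p was that of Ctso, a widely expressed cysteine protease gene on chromosome 3 from 81932601 to 81956725 (plus strand). Ctso had 476, 288 and 221 in Sox6+ libraries 103, 825 and 1211, against 183, 133 and 139 in Sox6- libraries 103, 825 and 1211. The groups did not overlap, and the highest value came from Sox6+ 103. The log2 difference was 1.05 ± 0.335 (SE; adjusted p = 0.278, limma). It was 1.37, 1.11 and 0.66 within numbers 103, 825 and 1211, and 1.11 without Sox6+ 825. Tpp1, a tripeptidyl peptidase lost in a childhood form of neuronal ceroid lipofuscinosis, had 1030.9, 1020.3 and 869.6 in Sox6+ libraries and 741, 699 and 880.1 in Sox6- libraries. Its groups overlapped at number 1211, and its log2 difference was 0.33 ± 0.174 (SE; adjusted p = 0.497, limma). Ctsl, a cysteine protease, had 4615.0, 6302.7 and 5936.5 in Sox6+ libraries and 4744.9, 4854.0 and 4333.9 in Sox6- libraries, with a log2 difference of 0.26 ± 0.150 (SE; adjusted p = 0.536, limma). Without Sox6+ 825 the log2 differences of Tpp1 and Ctsl were 0.30 and 0.17. Ctsf was among the least variable, between 1196.7 and 1266.2 in Sox6+ libraries and between 1086.9 and 1251.1 in Sox6- libraries.

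Of the 11 enzymes of glycolipid, glycoprotein and glycogen breakdown, 8 had a positive log2 difference, where 48.1% of tested genes did. The median was 0.14 over the 11 and 0.07 without Sox6+ 825. An unadjusted p under 0.05 (limma) was reached by 4 of them, where 11.4% of tested genes reached it. Asah1, Gla and Man2b1 were higher in Sox6+ neurons and Gaa was lower. Without Sox6+ 825, Gaa alone of the 11 stayed under 0.05, where 9.75% of tested genes did. Asah1, the acid ceramidase (chromosome 8 from 41340197 to 41374773, minus strand), had 2849.1, 3545.9 and 2923.0 in Sox6+ libraries 103, 825 and 1211, against 2451.1, 2436.1 and 2237.9 in Sox6- libraries 103, 825 and 1211. No Sox6- library reached the lowest Sox6+ library. The log2 difference was 0.38 ± 0.143 (SE; adjusted p = 0.362, limma), and 0.28 without Sox6+ 825. Man2b1, the lysosomal alpha-mannosidase that trims N-linked sugar chains (chromosome 8 from 85083270 to 85098282, plus strand), had 292, 318 and 305 in Sox6+ libraries and 160.2, 259 and 173 in Sox6- libraries, again without overlap. Its log2 difference was 0.66 ± 0.271 (SE; adjusted p = 0.408, limma). Gla, the alpha-galactosidase A deficient in Fabry disease (chromosome X from 134588149 to 134601125, minus strand), had 319.6, 533 and 349 in Sox6+ libraries and 206, 329 and 137 in Sox6- libraries. The groups overlapped, since Sox6- 825 lay above Sox6+ 103. Its log2 difference was 0.89 ± 0.354 (SE; adjusted p = 0.396, limma), and was positive within all 3 numbers, at 0.63, 0.69 and 1.34. Without Sox6+ 825 the log2 differences of Man2b1 and Gla were 0.63 and 0.66.

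Gaa, the enzyme deficient in Pompe disease, had a negative log2 difference. The gene lies on chromosome 11 from 119267887 to 119285454 (plus strand) and had 3571.2, 5642.2 and 4368.3 in Sox6+ libraries 103, 825 and 1211, against 4912.8, 6425.1 and 7140.3 in Sox6- libraries 103, 825 and 1211. The groups overlapped only through Sox6+ 825, which lay above Sox6- 103, and each Sox6+ library lay below the Sox6- library of its own number. The log2 difference was -0.45 ± 0.200 (SE; adjusted p = 0.437, limma). Without Sox6+ 825 it was -0.62 with an adjusted p of 0.330. Arsa, the arylsulfatase of sulfatide breakdown, had 228, 268 and 269 in Sox6+ libraries and 280.1, 397 and 327 in Sox6- libraries, without overlap, with a log2 difference of -0.38 and an interval from -0.92 to 0.16. Neu1, the lysosomal sialidase, had 822, 1077.2 and 721 in Sox6+ libraries and 984, 941 and 1079.5 in Sox6- libraries. Its log2 difference was -0.22 with all libraries and -0.38 without Sox6+ 825, where its SE was 0.178 and its adjusted p 0.545 (limma).

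The remaining enzymes of this class overlapped between the groups, with log2 differences from 0.05 to 0.36. Smpd1, the acid sphingomyelinase, had 1626.8, 2118.0 and 1685.6 in Sox6+ libraries and 1120.5, 1783.5 and 1598.9 in Sox6- libraries, with an interval from -0.17 to 0.74. Hexa, a subunit of the hexosaminidase that acts on GM2 ganglioside, had 1029.9, 1467.8 and 1036.8 in Sox6+ libraries and 929, 1145.0 and 1094.4 in Sox6- libraries. Glb1, the lysosomal beta-galactosidase, had 598, 631 and 570.2 in Sox6+ libraries and 511, 667 and 501 in Sox6- libraries. The log2 differences of Hexa and Glb1 were 0.14 and 0.11. Galc had 84.8, 76.3 and 93.3 in Sox6+ libraries and 60.4, 82.6 and 56.6 in Sox6- libraries, and Sox6+ 825 was its only Sox6+ library below a Sox6- library. Manba, the beta-mannosidase, had a log2 difference of 0.05 with an interval from -0.83 to 0.94.

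**Figure D3:**
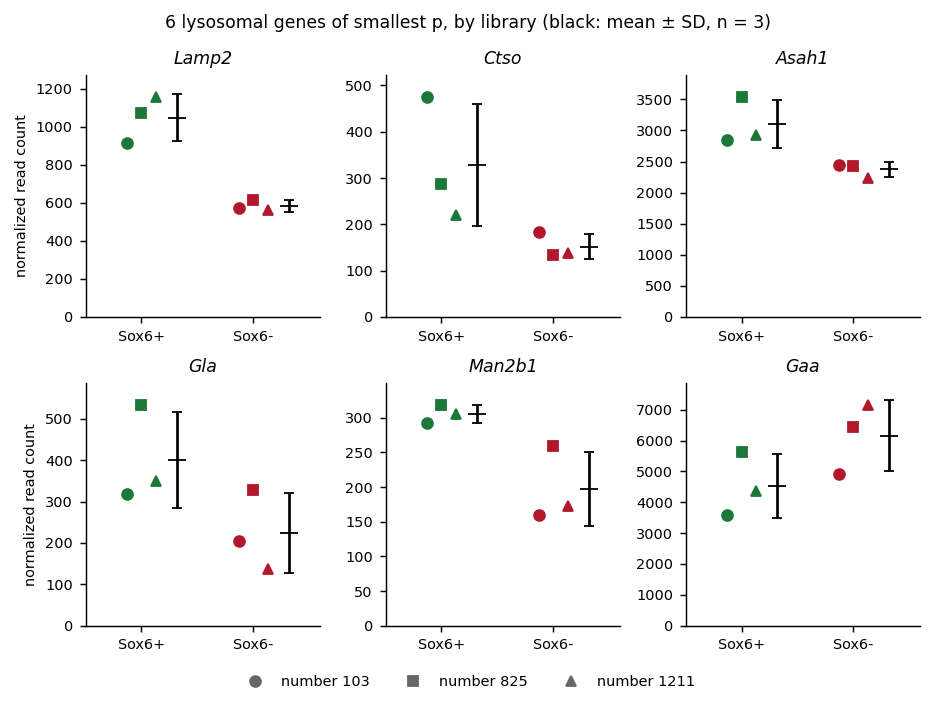
Normalized read counts of the 6 lysosomal genes of smallest p are plotted for each library (circle 103, square 825, triangle 1211), Sox6+ left and Sox6- right, with the mean ± SD in black. Lamp2, Ctso, Asah1 and Man2b1 have all Sox6+ points above all Sox6- points, Gla overlaps, and Gaa lies lower in Sox6+ neurons with overlap.

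Over the 40 genes, the groups did not overlap in 4 genes higher in Sox6+ neurons (Lamp2, Ctso, Asah1 and Man2b1), where 7.86% of tested genes were in that position, and in 1 lower gene (Arsa), where 9.19% were. Within all 3 numbers, 8 of the 40 were higher in Sox6+ neurons, where 19.0% of tested genes were, and 5 were lower, where 20.6% were.

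The 6 enzymes of glycosaminoglycan breakdown showed no common direction, with 2 positive log2 differences and a median of -0.11. Sgsh was the lowest of them, with 7.89, 30.7 and 37.9 in Sox6+ libraries and 32.6, 66.5 and 63.1 in Sox6- libraries. Its groups overlapped, with the lowest value in Sox6+ 103, and its log2 difference was -1.24 ± 0.736 (SE; adjusted p = 0.550, limma). Without Sox6+ 103 it was -0.58. Ids, the iduronate sulfatase encoded on the X chromosome, was the most abundant in reads, at 1569.6, 1018.0 and 1449.0 in Sox6+ libraries and 1421.8, 1154.1 and 1851.2 in Sox6- libraries, with an interval from -0.64 to 0.38. Gusb, the beta-glucuronidase, had 351, 764 and 530.4 in Sox6+ libraries and 510.4, 548 and 352 in Sox6- libraries, with its highest value in Sox6+ 825. Naglu and Arsb, which act on heparan sulfate and dermatan sulfate, were also highest in Sox6+ 825, at 173 and 265. Their log2 differences were 0.23 and -0.17, against -0.09 and -0.42 without that library. Idua, the alpha-iduronidase, had a log2 difference of -0.08 with an interval from -1.03 to 0.86. The summed level of the 6 ran from 2233.5 to 2536.7 in Sox6+ libraries and from 2277.5 to 2761.0 in Sox6- libraries.

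The groups overlapped for the lipase, the lipid carriers, the activators and the channels. Lipa, the acid lipase, had 462, 619 and 546 in Sox6+ libraries and 436, 484 and 308 in Sox6- libraries. Its log2 difference was 0.42 ± 0.238 (SE; adjusted p = 0.530, limma), and 0.32 without Sox6+ 825. Psap had 4445.3, 2964.0 and 4396.0 in Sox6+ libraries and 5135.4, 3126.9 and 5354.1 in Sox6- libraries. In both groups the library numbered 825 was the lowest for Psap. Npc2, the soluble cholesterol carrier, had 923, 1577.1 and 1418.5 in Sox6+ libraries and 848, 1644.5 and 1250.2 in Sox6- libraries, with the lowest value at number 103 in both groups. Gm2a, the GM2 activator, had 120.4, 133 and 114 in Sox6+ libraries and 142, 60.4 and 155 in Sox6- libraries, and both extremes lay in Sox6- libraries. The calcium channel gene Mcoln1 had between 1293.3 and 1507.6 in Sox6+ libraries and between 1243.7 and 1610.0 in Sox6- libraries. Tmem175, a potassium and proton channel of the lysosomal membrane, had 808, 1282.2 and 1328.9 in Sox6+ libraries and 902, 1392.8 and 1001.6 in Sox6- libraries. The annotation places 35.3% of the Tmem175 exon length over exons of Dgkq on the opposite strand, and the sources used here do not state whether counting used strand.

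Tfeb had few reads. It had 19, 35 and 2 reads in Sox6+ libraries 103, 825 and 1211, and 2, 1 and 27 reads in Sox6- libraries 103, 825 and 1211. The groups overlapped. Its interval, from -2.16 to 4.76 on the log2 scale, allows large differences in either direction and reflects the spread between libraries of the same group.

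Sox6+ library 825, which carried the macrophage transcripts, had the highest value of the 6 libraries in 20 of the 40 lysosomal genes (50%), against 25.0% of tested genes. Ctsd, the main aspartic protease of lysosomes, had 3261.4, 7627.0 and 4025.4 in Sox6+ libraries 103, 825 and 1211, against 3311.7, 3926.5 and 3701.4 in Sox6- libraries 103, 825 and 1211. Its level in Sox6+ 825 was 2.06 times the median of the other 5 libraries, which lay close together. The log2 difference was 0.35 with all libraries and -0.01 without Sox6+ 825. Atp13a2, a polyamine-exporting ATPase, had 591, 1072.7 and 435 in Sox6+ libraries and 497, 418 and 481 in Sox6- libraries, and was 2.23 times the median of the others in Sox6+ 825. Cln3, a lysosomal membrane protein lost in juvenile neuronal ceroid lipofuscinosis, had 87.8, 194 and 128 in Sox6+ libraries and 132, 103 and 97.4 in Sox6- libraries. Ctsa, the protective protein of beta-galactosidase and sialidase, had 1247.0, 2845.6 and 1675.4 in Sox6+ libraries and 1248.1, 1645.5 and 1651.8 in Sox6- libraries. Grn, which encodes progranulin, had 554, 1088.6 and 676 in Sox6+ libraries and 746, 759 and 795 in Sox6- libraries. Without Sox6+ 825 the log2 differences of Atp13a2, Cln3, Ctsa and Grn were 0.13, -0.05, -0.06 and -0.32, against 0.49, 0.24, 0.27 and -0.05 with it. The part of the macrophage transcripts in these values was not tested. Mbp, an oligodendrocyte marker, was also high in this library, at 1943.8 against a range from 64.1 to 139 in the other 5.

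Ctsz, a cysteine carboxypeptidase, was the most spread between Sox6+ libraries after Tfeb. It had 128, 658 and 55.4 in Sox6+ libraries 103, 825 and 1211, against 264, 212 and 211 in Sox6- libraries 103, 825 and 1211. Sox6+ 825 held the highest value and the other Sox6+ libraries the lowest. With all libraries the mean was 281 ± 329 in Sox6+ neurons and 229 ± 30.2 in Sox6- neurons (SD, n = 3 each), while the log2 difference was -0.44 with an interval from -2.33 to 1.45, so the direction differed between the scales. Without Sox6+ 825 the log2 difference was -1.42 ± 0.407 (SE; adjusted p = 0.278, limma), and the groups did not overlap.

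Without Sox6+ 825, 0 of 39 lysosomal genes passed (limma; 0.200% of 13001 tested genes passed), and 4 had an unadjusted p under 0.05, where 9.75% of tested genes did. Lamp2 and Ctso were the higher ones, where 3.99% of tested genes were, and Ctsz and Gaa the lower ones, where 5.76% were. At the adjusted threshold edgeR called 0 of the 39 and DESeq2 called 1, Lamp2, where 2.74% of tested genes passed. Groups did not overlap in 5 genes higher in Sox6+ neurons, where 12.1% of tested genes were in that position, and in 5 lower genes, where 14.4% were. The higher ones were Lamp2, Ctso, Man2b1, Asah1 and Galc, and the lower ones were Gaa, Arsa, Neu1, Ctsz and Grn. The median SD of the 40 genes on the log2 scale was 0.19 over the 2 remaining Sox6+ libraries and 0.31 over all 3. For all tested genes it was 0.26 and 0.39. An SD of 2 values tends to lie below an SD of 3, so these values do not compare the spread.

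The 5 genes with TCACGTGA in their window all had a positive log2 difference with all libraries, as did 21 of the 32 genes without it. The medians were 0.27 with it and 0.07 without it. Their medians were -0.01 and 0.00 without Sox6+ 825. Of the 5, 4 were highest in Sox6+ 825, as were 14 of the 32. For the shorter CACGTG the medians were 0.11 for the 13 genes with it and 0.11 for the 24 without it, and -0.05 and 0.06 without Sox6+ 825. Sox6+ 825 was highest in 7 of the 13 and in 11 of the 24.

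The other genes of the lysosomal system also stayed under the threshold, with 0 of 130 past it (limma). Of all tested genes 0.304% passed. The count was also 0 with edgeR, where 0.0455% passed, and was 1, Atg16l1, with DESeq2 on the recovered reads, where 2.98% passed. Of the 130, 2 passed in the authors' deposited table, where 2.83% of genes with an adjusted p did. In the authors' deposited table Atg16l1 had a log2 fold change of 1.06 for Sox6- over Sox6+ and an adjusted p of 0.00479, and Tfec had -6.99 and 0.0469. At an unadjusted p under 0.05 there were 5 higher in Sox6+ neurons among the 130, where 5.21% of tested genes were, and 6 lower, where 6.17% were. Of 18 subunits of the V-ATPase, the proton pump that acidifies lysosomes, 15 had a positive log2 difference, where 48.1% of tested genes did. The median of the 18 was 0.15. Without Sox6+ 825, 16 of the 18 were positive, where 49.6% of tested genes were, and the median was 0.10. Among them Atp6v1g1 had 5636.0, 6248.0 and 6924.3 in Sox6+ libraries and 3652.2, 5509.6 and 3253.4 in Sox6- libraries, without overlap, with a log2 difference of 0.63 and an adjusted p of 0.272 (limma). Atp6v0a2 had the smallest p of the negative ones, with a log2 difference of -0.46.

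Among 15 genes of enzyme sorting, the median was 0.10. Gnptab, which makes the mannose 6-phosphate tag, had 92.7, 194 and 165 in Sox6+ libraries and 288, 206 and 478 in Sox6- libraries, without overlap. Its log2 difference was -1.08 with an adjusted p of 0.353 (limma), and -1.29 without Sox6+ 825. Vps29, a subunit of the retromer that recycles sorting receptors, had 5239.4, 5400.8 and 5907.8 in Sox6+ libraries and 4558.8, 4264.9 and 4049.2 in Sox6- libraries, with a log2 difference of 0.36 and an adjusted p of 0.319 (limma).

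Among 19 regulators the median was 0.06. Tfe3, a relative of Tfeb, had 103, 39.9 and 51.8 in Sox6+ libraries and 118, 105 and 157 in Sox6- libraries, without overlap, with a log2 difference of -1.05 and an adjusted p of 0.423 (limma). Mitf, another relative, had 23.7, 100.2 and 32.3 in Sox6+ libraries and 37.4, 1.01 and 4.64 in Sox6- libraries, with a log2 difference of 2.53, and of 1.92 without Sox6+ 825. Tfec, the fourth of the family, had 122 in Sox6+ 825 and at most 10.2 elsewhere. Among 22 autophagy genes the median was 0.08. Atg16l1, which helps to place the lipidation of LC3, had 228, 243 and 324 in Sox6+ libraries and 486, 602 and 565 in Sox6- libraries, without overlap, with a log2 difference of -1.07 ± 0.229 (SE; adjusted p = 0.110, limma). Atg7, the E1-like enzyme of that reaction, had 271, 369 and 396 in Sox6+ libraries and 184, 222 and 256 in Sox6- libraries, with a log2 difference of 0.64.

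The 21 other hydrolases had a median log2 difference of 0.06, and -0.31 over 19 without Sox6+ 825. Hgsnat, an acetyltransferase of heparan sulfate breakdown, had 456, 606 and 700.5 in Sox6+ libraries and 754, 659 and 851 in Sox6- libraries. Ctsc and Ctsh, protease genes, lay at 1109.1 and 347 in Sox6+ 825 and at no more than 9.59 and 25.9 in any other library, and the part of the macrophage transcripts in these values was not tested. Among 20 other membrane proteins the median was -0.15. Laptm4b had a log2 difference of 0.40 and Hps1 of -3.04, with Hps1 at 7.89, 0 and 29.6 in Sox6+ libraries and 54.7, 67.5 and 39.0 in Sox6- libraries. Without Sox6+ 825, in which it was at 0, Hps1 had a log2 difference of -1.70. The 15 genes of lysosome fusion and positioning had a median of 0.00, with Arl8a, a GTPase that moves lysosomes outward, at 0.26 and Vps18, a subunit of the fusion complex HOPS, at -0.91. Vps18 had 99.6, 27.3 and 124 in Sox6+ libraries and 156, 111 and 134 in Sox6- libraries, and a log2 difference of -0.25 without Sox6+ 825.

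**Figure D4:**
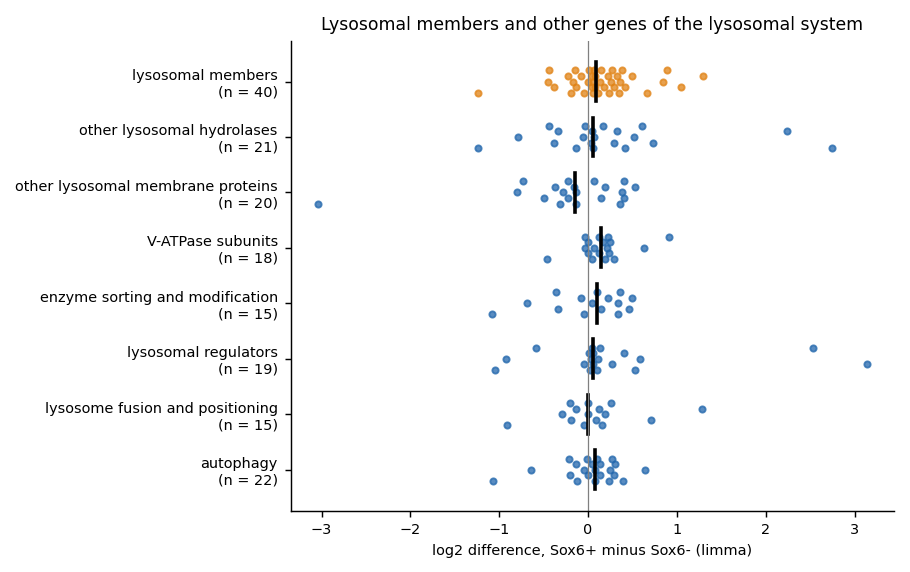
Each point is the log2 difference (Sox6+ minus Sox6-, limma) of a gene, for the 40 lysosomal genes (orange) and 7 other lists of the lysosomal system (blue), with each list's median as a black bar. The medians run from -0.15 to 0.15. The points beyond 2 to the right are Ctsc and Ctsh among the hydrolases and Tfec and Mitf among the regulators, each highest in Sox6+ 825.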

How the data were processed

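Per the submitters' processing notes, the named builds were GRCm38 and mm10 and the named tools were cutadapt, FastQC, HTSeq, STAR and DESeq2; no versions or counting settings are stated in the sources used here. Per the labels' protocols, papain-dissociated, sorted cells gave total RNA for stranded TruSeq mRNA libraries. The table the authors deposited holds a normalized signal per library, which is reads over a size factor, and their DESeq2 test: log2 fold changes (Sox6- over Sox6+) with errors, a test score and p-values. In each library 100% of values above 0 were whole multiples of the value of 1 read, within 0.01, so reads were recovered.

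Genes averaging 10 or more over the libraries in a fit were tested with limma (trend, robust, 2-sided, no block) on log2(value + 1), Benjamini-Hochberg adjusted over all of them; fold changes on this scale understate low genes. The count tests on recovered reads called 6 genes (edgeR, robust) and 387 (DESeq2). All comparisons used the groups in the sample titles. Intervals are 95% limma intervals. Positions and merged exon lengths come from GENCODE M21 (GRCm38), promoters from RefSeq. No library was a copy of another (chi-square per gene 34.4 or more in every pair). The test was checked on simulated counts. Per-library values were given for the 10 lysosomal genes of smallest p, the 5 most abundant and the 5 of smallest p without Sox6+ 825. They were also given for the 5 farthest from the other libraries in Sox6+ 825. Of the other lists, the gene of smallest p in each direction was named. Atp6v0a2, Laptm4b and Arl8a were given by log2 difference alone. Further genes were named after their values were seen. A gene that the rule names is not reported here. The 40 genes, the lists and the tests were chosen with earlier results of these data known. Alternatives were the block, pseudocounts of 0.5 and 8, other filters, TMM, edgeR, DESeq2 and leaving out libraries. Tools were matplotlib 3.10.9, scipy 1.17.1, pandas 2.3.3 and numpy 2.4.6 under Python 3.11.15, and DESeq2 1.42.0, edgeR 4.0.16 and limma 3.58.1 under R 4.3.3.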

Additional observations from a re-analysis of the deposited data

How the results depend on the processing

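The count of lysosomal genes past the threshold was 0 with pseudocounts of 0.5 and 8, no filter, a filter of 50, TMM, edgeR, without number 825 and without any single library; it was 1 (Lamp2) with DESeq2 on the recovered reads and 1 (Lamp2, adjusted p = 0.0371, limma) with the replicate block, a term for library number (2.03% of tested genes passed). Without Sox6+ 825 it was 1 (Lamp2) with DESeq2 and 0 with the block, with a pseudocount of 8, with edgeR and with each further library left out, an alternative chosen after seeing the data in which a lone Sox6+ library is assumed to vary like the Sox6- libraries. The adjusted p of Lamp2 ran from 0.00117 (DESeq2) to 0.419 (limma without Sox6- 1211), and its log2 difference from 0.76 to 0.94. Among the other lysosomal lists 1 gene, Atg16l1, passed with the block and 1, the same gene, with DESeq2. The median log2 difference of the lysosomal genes ran from 0.00 without Sox6+ 825 to 0.23 without Sox6+ 103. Over all genes the 40 calls became 267 with the block, 69 with a pseudocount of 8, 21 with no filter, 6 with edgeR, 387 with DESeq2 and 12 without number 825; single libraries left out gave from 1 (without Sox6- 1211) to 162 (without Sox6+ 103). The cause was not tested. Ctsz turned positive with edgeR (0.26), with DESeq2 (0.29) and without Sox6+ 1211 (0.35); over single libraries left out it ran from -1.42 to 0.35. Without Sox6+ 825, Ctsl ran from -0.01 (without Sox6+ 1211) to 0.36 (without Sox6+ 103). The other 10 lysosomal genes with a fold change and test kept their direction under all alternatives.

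The library numbers do not pair the samples by the labels: deviations of same-numbered libraries from their group means correlated at 0.268, 0.172 and 0.0789 for 103, 825 and 1211, although each library correlated best with its own number. The block changed no other call among the lysosomal genes. Tfeb and Sgsh had as few as 1 and 8 reads in a library, so counting error weighs most on them.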
